A study of Mus musculus with 10 samples.

Results

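The genes described here encode the machinery that copies DNA during S phase. They are 43 genes taken from a list, and all 43 had at least 1 probe on the array, matched through the probe's accession or through a current or older symbol. They had 61 probes in all, out of 41174 on the array, and they are 43 of the 19942 genes tested. Of these probes 4 did not pass the filter on dim probes (1 each of Pola2, Prim2, Pole and Rrm1), and each of the 43 genes kept at least 1. J1 mouse embryonic stem cells were profiled on arrays after siRNA transfection against subunits of INO80, an ATP-dependent chromatin remodelling complex. The 5 groups were cells given siRNA against Ino80 (the ATPase), Ino80b, Ino80c or Ino80e (accessory subunits), or a non-targeting siRNA (NT), all collected 96 hours (day 4) later. Cells were maintained in ESGRO medium and moved to M15 medium for transfection, so all groups share that change of medium. Each group had 2 arrays, which the design text calls biological replicates, and the knockdowns are transient reductions of RNA in 1 cell line, not gene deletions.

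Replication begins when the origin recognition complex marks origins and, with CDC6 and CDT1, loads the MCM helicase, a step that geminin blocks by binding CDT1. The CDC7 kinase, CDC45 and the GINS complex then turn the helicase on, DNA polymerase alpha and primase make primers, and polymerases epsilon and delta extend the leading and lagging strands with the help of the PCNA clamp, its loader RFC and the single-strand binding protein RPA. Many of these genes are classical targets of E2F transcription factors, and their RNAs rise at the border of G1 and S phase. Embryonic stem cells are known for a short G1 phase and a large share of cells in S phase.

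Levels are log2 processed signal minus the 75th percentile of the array, so a level of 0 is the brightness of that percentile. A fold change is a difference of such levels, and a gene was called when limma's p, adjusted by Benjamini-Hochberg over the 19942 genes, was under 0.05. The arrays lay on 3 slides. NT was alone on slide 1, Ino80 and Ino80b shared slide 2, and Ino80c and Ino80e shared slide 3, so a difference from NT and a difference between slides cannot be told apart. The pairs Ino80 against Ino80b and Ino80c against Ino80e were each made within a slide. The array labels named the dye as Cy5, whereas the signals were in the green channel. An array had between 27334 and 32512 probes well above background, and the probes used for the 43 replication genes were so on all 10 arrays. The targeted genes were checked in their own knockdowns. Ino80 RNA changed by -1.20 ± 0.13 (SE, n = 2 arrays a group, adjusted p = 0.00397 in limma), Ino80b RNA by -2.0 ± 0.35 (adjusted p = 0.0271) and Ino80c RNA by -2.34 ± 0.16 (adjusted p = 0.0101). Ino80e RNA was -1.20 ± 0.28 in its own knockdown and was not called (adjusted p = 0.0796). The Ino80b probe also read -1.11 ± 0.35 in the Ino80c knockdown and -1.39 ± 0.35 in the Ino80e knockdown, neither called.

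With the brightest probe of each gene, expression of the replication genes stayed close to the NT level in all 4 knockdowns. No member differed from NT by 2-fold with that probe. A dimmer kept probe of Tyms did, with a log2 fold change of 1.58 in the Ino80 knockdown. Across all tested genes, a difference of at least 2-fold was seen for 10.4% in the Ino80 knockdown, 6.82% in Ino80b, 8.87% in Ino80c and 5.24% in Ino80e. All tested genes include dim ones, as a probe had to be well above background in only some group. The members' probes were so on all 10 arrays, so these shares are not matched for brightness. The members farthest above NT were at 1.51-fold (Ino80), 1.70-fold (Ino80b), 1.40-fold (Ino80c) and 1.72-fold (Ino80e). The members farthest below NT were 1.42-fold (Ino80), 1.57-fold (Ino80b), 1.70-fold (Ino80c) and 1.60-fold (Ino80e) lower. Of the 43 members, 1 was called in the Ino80 knockdown, Rrm2, which was lower. Of all genes 12.6% were called there, with 4.84% called lower. None was called in the Ino80b knockdown, against 6.77% of all genes, and 1 was called in Ino80c, Pola2, which was lower. Of all genes 6.7% were called there, with 1.68% called lower. In the Ino80e knockdown limma called 0% of all genes and no member.

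At an unadjusted p under 0.05, 3 members were higher and 6 lower in the Ino80 knockdown, where 20.8% and 10.8% of all genes were. The Ino80b knockdown had 9 higher and 3 lower (19.5% and 10.1% of all genes), and Ino80c had 8 higher and 6 lower (23.3% and 7.44%). Ino80e had 20 higher and 4 lower (22% and 6.92%), although none of them passed the adjusted threshold. The 95% interval of the log2 fold change lay inside 2-fold in both directions for 42 members in Ino80, 41 in Ino80b, 39 in Ino80c and 36 in Ino80e, compared with 56.2%, 58.4%, 57% and 59.9% of all genes. The members were also measured more tightly, with a median half-width of that interval of 0.36 on the log2 scale, compared with 0.49 over all genes.

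For the mean of the 4 knockdowns against NT, which sets 8 arrays against 2, Orc6 was called higher and Pola2 and Pold2 were called lower, 3 of 43 members where 18.6% of all genes were called. By direction, 1 member was higher and 2 were lower, compared with 13.1% and 5.53% of all genes. These calls were sensitive to the processing. Over the alternatives tried, the number of members called in this comparison ranged between 0 and 17. No named call changed its direction in any alternative.

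**Figure D1:**
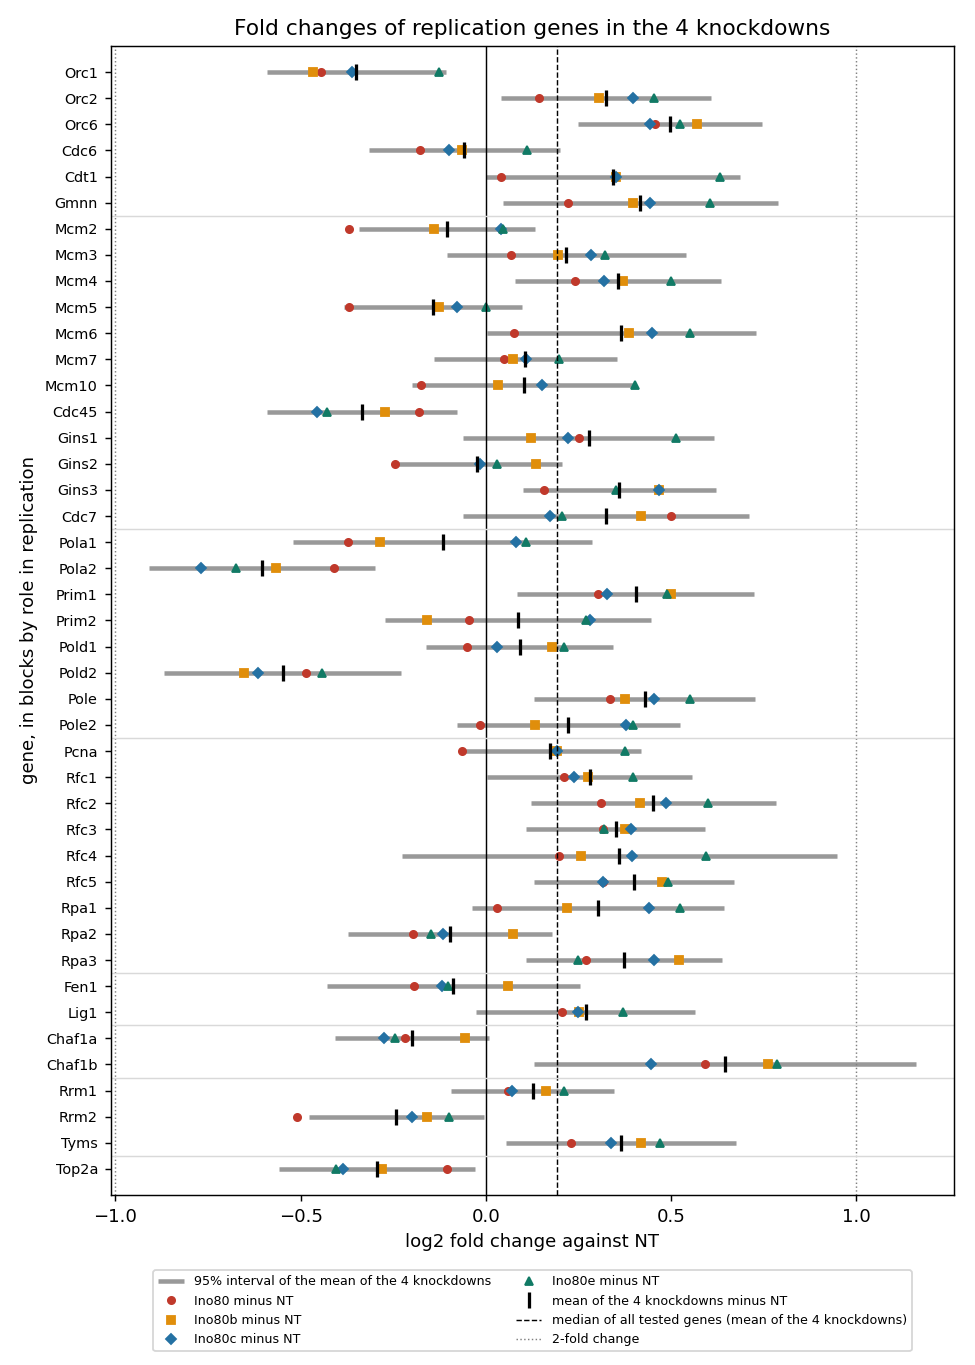
Log2 fold change against NT (horizontal axis) of each of the 43 replication genes (vertical axis, in blocks by role). Coloured points are the 4 knockdowns, the black tick is their mean, the grey bar is the 95% interval of that mean, the dashed line is the median of all tested genes at 0.19, and the dotted lines mark 2-fold. All points lie inside the dotted lines, with Pola2 and Pold2 farthest to the left and Chaf1b farthest to the right.

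Origin licensing genes gave the only called increase. Orc6, a subunit of the origin recognition complex, had log2 levels of 4.92 and 5.08 in Ino80 knockdown cells, 5.02 and 5.20 in Ino80b, 5.01 and 4.95 in Ino80c, and 5.03 and 5.10 in Ino80e, against 4.63 and 4.45 in NT cells. All 8 knockdown arrays lay above both NT arrays. Orc6 was higher in the mean of the 4 knockdowns by 0.50 ± 0.11 (SE; limma adjusted p = 0.0245), which is 1.41-fold. No knockdown alone carried the call, with log2 fold changes of 0.46, 0.57, 0.44 and 0.52 and adjusted p of 0.0648, 0.0505, 0.0828 and 0.0868 in limma for Ino80, Ino80b, Ino80c and Ino80e. The call was lost without NT replicate 2 (adjusted p = 0.153), Ino80b replicate 2 (0.059), either Ino80c array (0.0551 and 0.0504) or either Ino80e array (0.0506 and 0.0596), and the log2 fold change was 0.29 under quantile normalization, no longer called.

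Orc1, the ATPase subunit of the same complex, was not called in any comparison in the main setting. Its log2 levels were 1.68 and 1.52 in Ino80 knockdown cells, 1.61 and 1.55 in Ino80b, 1.67 and 1.69 in Ino80c, and 1.89 and 1.94 in Ino80e, against 1.93 and 2.15 in NT cells. The Ino80, Ino80b and Ino80c arrays all lay below both NT arrays, while Ino80e overlapped them. The mean of the 4 knockdowns was -0.35 ± 0.10 for Orc1, with limma adjusted p = 0.0543. Orc1 was called lower in Ino80 and in Ino80b with the authors' deposited values (adjusted p of 0.0454 and 0.0194) and with normexp background correction (0.0402 and 0.0283), both in limma. Orc2, a core subunit, was at 0.33 in the same mean, and Cdc6, the ATPase that recruits the helicase with CDT1, was at -0.06. Cdt1, the helicase loader, was at 0.04 in Ino80, 0.35 in Ino80b, 0.35 in Ino80c and 0.63 in Ino80e knockdown cells. Gmnn, which encodes its inhibitor geminin, was at 0.22, 0.40, 0.44 and 0.61 in the same knockdowns. Neither Cdt1 nor Gmnn was called in any of them.

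The 12 helicase genes held no called member in any comparison with NT. Mcm2 to Mcm7 encode the ring of the helicase. Mcm4 was at 0.36, Mcm6 at 0.37, Mcm3 at 0.22 and Mcm7 at 0.11 in the mean of the 4 knockdowns, whereas Mcm2 was at -0.11 and Mcm5 at -0.14. Mcm5 was lowest in the Ino80 knockdown, at -0.37 ± 0.13 (limma adjusted p = 0.102). It was called there with the authors' deposited values and with a trended robust prior. Both the Ino80 and the Ino80b arrays of Mcm5 lay below both NT arrays, and the Ino80c and Ino80e arrays overlapped them. The ring genes did not share a direction relative to NT, although Mcm7 was below NT under quantile normalization and in the authors' deposited values, and Mcm3 was at -0.01 when its kept probes were averaged. Mcm4 was the ring gene with all 8 knockdown arrays above both NT arrays. Mcm2 had log2 levels of 3.65 and 3.71 in Ino80 knockdown cells, 3.83 and 3.99 in Ino80b, 3.98 and 4.20 in Ino80c, and 4.10 and 4.09 in Ino80e, against 4.02 and 4.08 in NT cells. The Ino80 and Ino80b arrays lay below both NT arrays, the Ino80e arrays above both, and the Ino80c arrays on either side of them. Mcm10, which helps to start the fork, was at 0.10 in the mean of the 4 knockdowns.

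Cdc45, which joins the MCM ring to form the active helicase, had log2 levels of 1.11 and 0.89 in Ino80 knockdown cells, 1.02 and 0.80 in Ino80b, 0.79 and 0.67 in Ino80c, and 0.77 and 0.74 in Ino80e, against 1.20 and 1.16 in NT cells. Every knockdown array lay below both NT arrays, and the lowest were those of Ino80c and Ino80e. Its mean change was -0.33 ± 0.11 and was not called (limma adjusted p = 0.0704). The GINS genes, whose products complete the active helicase, did not follow Cdc45, with mean changes of 0.28 for Gins1, -0.02 for Gins2 and 0.36 for Gins3. Cdc7, the kinase that activates loaded helicases, was at 0.32 in the mean of the 4 knockdowns, with NT arrays at 1.18 and 0.62 that enclosed 3 of the 8 knockdown arrays.

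Of the polymerase genes, Pola2 and Pold2 were called lower. Pola2 encodes the accessory subunit of DNA polymerase alpha, which with primase makes the primers. Its log2 levels were 1.39 and 1.08 in Ino80 knockdown cells, 1.11 and 1.05 in Ino80b, 0.86 and 0.90 in Ino80c, and 1.03 and 0.91 in Ino80e, against 1.47 and 1.81 in NT cells. All 8 knockdown arrays lay below both NT arrays, the Ino80c arrays lowest. Pola2 fell in the Ino80c knockdown by -0.77 ± 0.16 (limma adjusted p = 0.0418) and in the mean of the 4 knockdowns by -0.60 ± 0.13 (adjusted p = 0.0252). The changes of -0.41 in Ino80, -0.57 in Ino80b and -0.68 in Ino80e were not called (limma adjusted p = 0.138, 0.0778 and 0.0835).

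The Pola2 result rested on 1 of its 3 probes. Both probes that were above background are shown because they disagreed. The probe used, at chr19:5841290-5841349 on the minus strand (build mm7), gave the decrease above. A second, much dimmer probe of the gene, at chr19:5845152-5845211 on the same strand, was at 0.13 in Ino80, 0.17 in Ino80b, 0.18 in Ino80c and -0.02 in Ino80e knockdown cells relative to NT. With the kept probes averaged, the Pola2 change was -0.30 in Ino80c and -0.25 in the mean of the 4 knockdowns, and neither was called. The remaining probe was below background throughout. The Pola2 call in the Ino80c knockdown was also lost without either Ino80c array (adjusted p = 0.17 and 0.153 in limma), NT replicate 2 (0.156) or any 1 of the Ino80b and Ino80e arrays (0.0761). The call in the mean of the 4 knockdowns was lost without NT replicate 2 (adjusted p = 0.167), Ino80b replicate 2 (0.0605), either Ino80c array (0.0548 and 0.051) or Ino80e replicate 2 (0.0584).
Pola2, probe used: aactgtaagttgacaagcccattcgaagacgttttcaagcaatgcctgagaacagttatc
Pola2, dimmer probe: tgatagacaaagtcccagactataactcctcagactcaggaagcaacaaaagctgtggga

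Pold2 encodes the accessory subunit of DNA polymerase delta, which extends the lagging strand. Its log2 levels were 2.52 and 2.72 in Ino80 knockdown cells, 2.38 and 2.53 in Ino80b, 2.43 and 2.56 in Ino80c, and 2.59 and 2.75 in Ino80e, against 2.91 and 3.31 in NT cells. All 8 knockdown arrays lay below both NT arrays, which were themselves 0.40 apart. Pold2 fell in the mean of the 4 knockdowns by -0.55 ± 0.14 (limma adjusted p = 0.0356) and was not called in any knockdown alone, with log2 fold changes of -0.49, -0.65, -0.61 and -0.44 in Ino80, Ino80b, Ino80c and Ino80e. Without NT replicate 2 the adjusted p was 0.223, and without any 1 of the Ino80b, Ino80c and Ino80e arrays it lay between 0.0615 and 0.0706 in limma. The gene had 1 probe, at chr11:5825086-5825145 on the minus strand (build mm7), whose sequence is given because the decrease rests on it alone.
Pold2, probe: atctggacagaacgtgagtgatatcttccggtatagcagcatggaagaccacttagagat

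The other polymerase genes were not called. Pole, the catalytic subunit of the leading strand polymerase epsilon, had log2 levels of 3.39 and 3.64 in Ino80 knockdown cells, 3.43 and 3.69 in Ino80b, 3.63 and 3.65 in Ino80c, and 3.61 and 3.86 in Ino80e, against 3.25 and 3.12 in NT cells. All 8 knockdown arrays lay above both NT arrays, and the mean change of 0.43 ± 0.13 had a limma adjusted p of 0.0559. Pole2, the accessory subunit of the same enzyme, was at 0.22 in that mean. Pold1, the catalytic subunit of polymerase delta, was at 0.09. Pola1, the catalytic subunit of polymerase alpha, was at -0.37 in Ino80, -0.29 in Ino80b, 0.08 in Ino80c and 0.11 in Ino80e knockdown cells, none called. The Ino80 and Ino80b arrays of Pola1 lay below both NT arrays, Ino80 replicate 2 by less than 0.01, and the Ino80c and Ino80e arrays overlapped them. The accessory subunits Pola2 and Pold2 were called and the catalytic subunits of the same enzymes were not, a difference between genes that was itself not tested. Prim1, the catalytic subunit of primase, was at 0.41 with all 8 knockdown arrays above both NT arrays, and Prim2, its large subunit, was at 0.09.

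**Figure D2:**
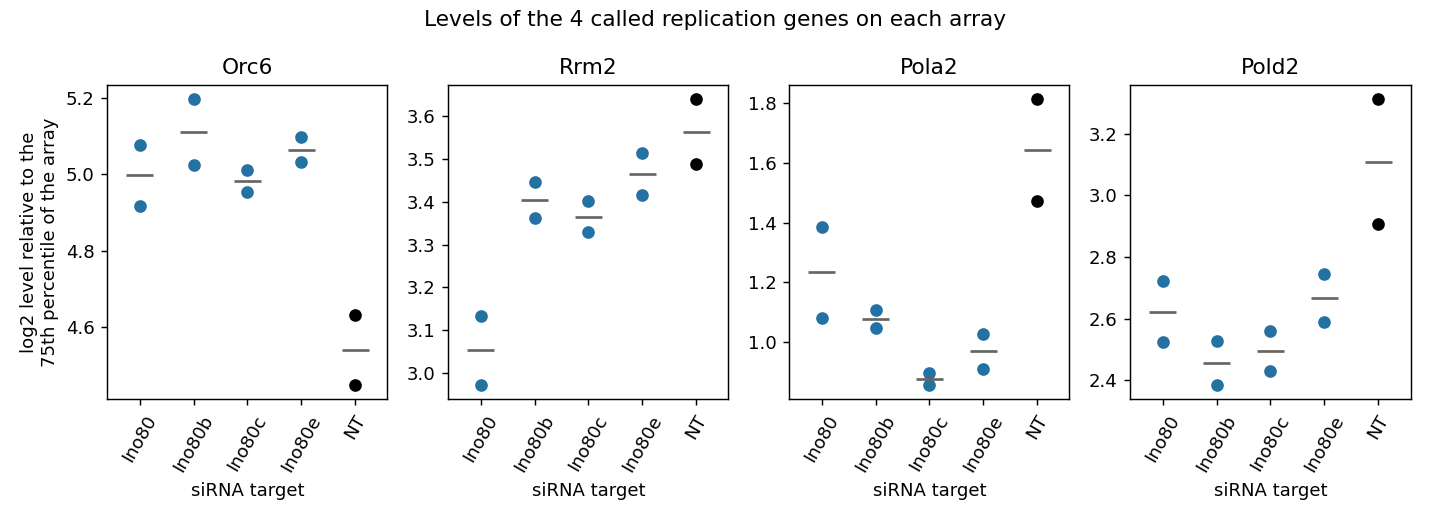
Log2 level relative to the 75th percentile of the array (vertical axis, a different range in each panel) of the 4 called genes in each group (horizontal axis). Points are single arrays, 2 a group, and bars are group means. All 8 knockdown arrays lie above NT for Orc6 and below NT for Pola2 and Pold2, and the Ino80 arrays of Rrm2, at 3.13 and 2.97, lie below those of every other group.

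The clamp, clamp loader and single-strand binding genes had no called member among 9. Pcna, the sliding clamp that tethers polymerases to DNA, was at -0.06 in Ino80, 0.19 in Ino80b, 0.19 in Ino80c and 0.38 in Ino80e knockdown cells. The 5 genes of the clamp loader lay close together, at 0.28 (Rfc1), 0.45 (Rfc2), 0.35 (Rfc3), 0.36 (Rfc4) and 0.40 (Rfc5) in the mean of the 4 knockdowns, where the median of all genes was 0.19. Rfc2 had log2 levels of 4.76 and 5.12 in Ino80 knockdown cells, 4.91 and 5.19 in Ino80b, 5.15 and 5.09 in Ino80c, and 5.18 and 5.29 in Ino80e, against 4.77 and 4.50 in NT cells. Apart from Ino80 replicate 1, each knockdown array lay above both NT arrays. The mean change of Rfc2, 0.45 ± 0.14, was not called (limma adjusted p = 0.0631), and its second probe was at -0.03. Rpa1 and Rpa3, which encode the large and small subunits of the single-strand binding protein, were at 0.30 and 0.37, whereas the middle subunit Rpa2 was at -0.10 with its first probe and -0.11 with its second.

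Lagging strand and chromatin assembly genes were not called either. Fen1, the nuclease that trims primers, was at -0.09 in the mean of the 4 knockdowns, and Lig1, the ligase that seals the fragments, was at 0.27. Chaf1a and Chaf1b encode subunits of the histone chaperone CAF-1, which places histones on new DNA. Chaf1b had log2 levels of 4.01 and 4.80 in Ino80 knockdown cells, 4.37 and 4.79 in Ino80b, 4.24 and 4.29 in Ino80c, and 4.41 and 4.79 in Ino80e, against 3.80 and 3.84 in NT cells. Both NT arrays lay below all 8 knockdown arrays, and the Ino80 arrays were 0.79 apart. The mean change of 0.65 ± 0.22, or 1.56-fold, was not called (limma adjusted p = 0.0779). Chaf1a was at -0.20 (limma adjusted p = 0.146, not called), with all 8 knockdown arrays below both NT arrays.

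Among the genes of nucleotide supply, Rrm2 was called lower in the Ino80 knockdown. Rrm2 encodes the small subunit of ribonucleotide reductase, which makes deoxyribonucleotides. Its log2 levels were 3.13 and 2.97 in Ino80 knockdown cells, 3.45 and 3.36 in Ino80b, 3.40 and 3.33 in Ino80c, and 3.51 and 3.42 in Ino80e, against 3.64 and 3.49 in NT cells. The Ino80 arrays were the lowest of all, and the Ino80e arrays overlapped those of NT. Rrm2 fell in Ino80 knockdown cells by -0.51 ± 0.13 (limma adjusted p = 0.043), which is 1.42-fold lower. The call was lost without any 1 of the 10 arrays, with adjusted p between 0.0619 and 0.174 in limma. On the shared slide Rrm2 was -0.35 ± 0.13 in Ino80 relative to Ino80b and was not called (limma adjusted p = 0.484). The Ino80b, Ino80c and Ino80e changes relative to NT were -0.16, -0.20 and -0.10. Rrm1, the large subunit, was at 0.06 in the Ino80 knockdown, and Tyms, which makes thymidylate, was at 0.23. Another kept probe of Tyms, dimmer than the one used, was at 1.58 in that knockdown.

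Top2a, the topoisomerase that untangles finished chromosomes, had log2 levels of 2.95 and 2.90 in Ino80 knockdown cells, 2.76 and 2.74 in Ino80b, 2.56 and 2.73 in Ino80c, and 2.73 and 2.53 in Ino80e, against 2.91 and 3.15 in NT cells. The Ino80b, Ino80c and Ino80e arrays lay below both NT arrays, while Ino80 overlapped them. Its mean change was -0.29 ± 0.11 (limma adjusted p = 0.102, not called). These values are from the brightest of 3 kept probes, which disagreed. The 3 probes lay between -0.29 and 0.21 in that mean and between -0.28 and -0.02 in Ino80b. They lay between -0.38 and 0.43 in Ino80c and between -0.51 and 0.44 in Ino80e.

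**Figure D3:**
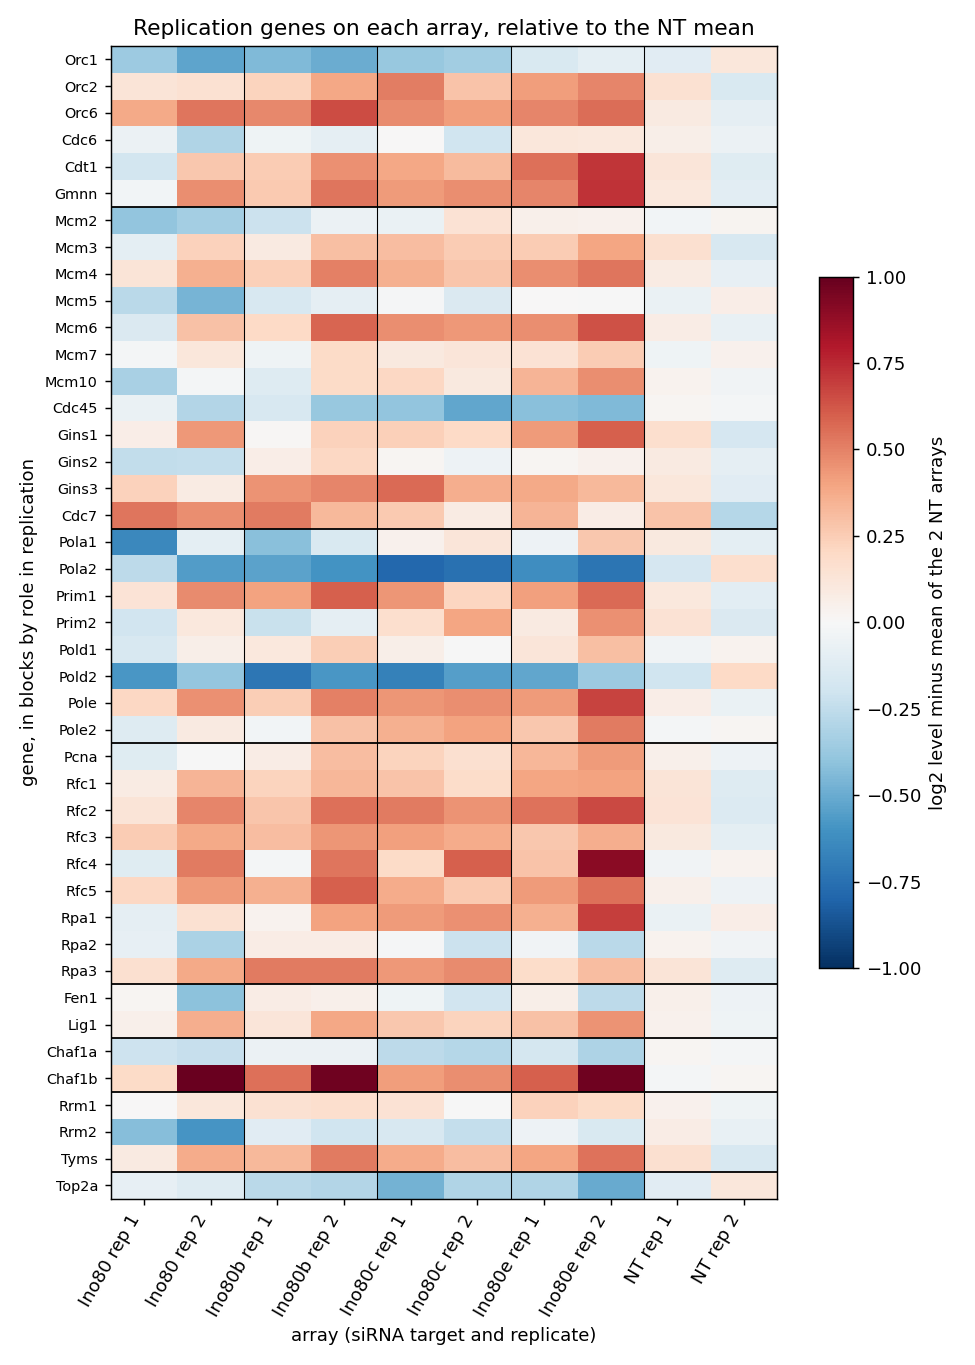
Log2 level of each replication gene (vertical axis, in blocks by role) on each of the 10 arrays (horizontal axis) minus the mean of the 2 NT arrays, in red where higher and blue where lower. Orc6, Chaf1b and the Rfc genes are red on most knockdown arrays, Pola2, Pold2 and Cdc45 are blue on all 8, and Rrm2 is darkest blue in the Ino80 arrays.

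Counted by arrays, 9 members had all 8 knockdown arrays above both NT arrays, which 19.3% of all genes did. They were Orc6, Mcm4, Prim1, Pole, Rfc3, Rfc5, Rpa3, Lig1 and Chaf1b. A further 4 members, Cdc45, Pola2, Pold2 and Chaf1a, had all 8 below both NT arrays, which 7.57% of all genes did. By knockdown, both arrays were above NT for 10 members in Ino80 (35.7% of all genes), 22 in Ino80b (37.6%), 26 in Ino80c (44.6%) and 29 in Ino80e (41.2%). Both arrays were below NT for 11 members in Ino80 (18.6% of all genes), 10 in Ino80b (21.1%), 7 in Ino80c (16%) and 5 in Ino80e (16.9%). All 4 knockdowns share the same 2 NT arrays, so these counts are not independent.

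As a group the replication genes lay near the rest of the transcriptome. Their median log2 fold change was 0.05 in Ino80, 0.19 in Ino80b, 0.24 in Ino80c and 0.32 in Ino80e, while the median of all genes was 0.17, 0.13, 0.25 and 0.19 in the same knockdowns. Relative to all genes the members' median was thus -0.12 in Ino80, 0.06 in Ino80b, -0.02 in Ino80c and 0.13 in Ino80e. The shift in Ino80 was seen on 1 array, as replicate 1 was at -0.25 and replicate 2 at -0.01 relative to all genes. In Ino80b the replicates were at -0.03 and 0.15, in Ino80c at 0.02 and -0.05, in Ino80e at 0.09 and 0.20, and in NT at 0.01 and -0.01. Ino80 replicate 1 was also the array with the most probes well above background, 32512, and the brightest 75th percentile, 940 intensity units, and the part of these in its shift was not tested.

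**Figure D4:**
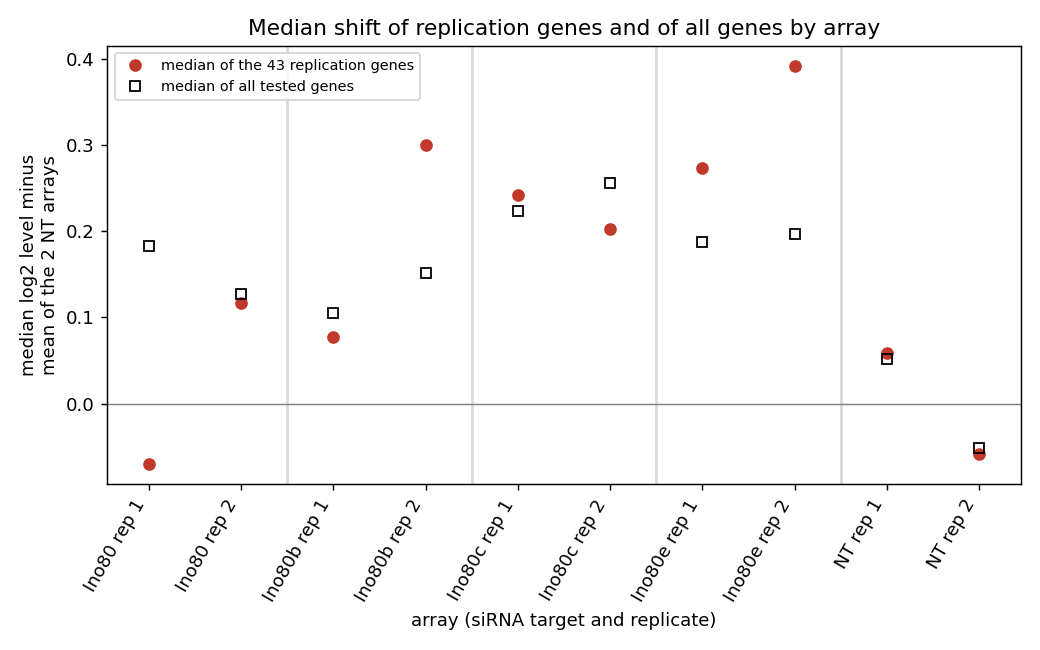
Median over the 43 replication genes (filled circles) and over all tested genes (open squares) of the log2 level minus the mean of the 2 NT arrays (vertical axis) for each array (horizontal axis). The circles lie above the squares on both Ino80e arrays and below them on Ino80 replicate 1, at -0.07 against 0.18.

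The sign of a small change depended on the scaling between arrays, since the median of all genes in the mean of the 4 knockdowns was 0.19 here, 0.09 after quantile normalization and 0.03 in the authors' deposited values. Mcm7, Mcm10, Pold1 and Rrm1 were above NT in the mean of the 4 knockdowns as scaled here, at 0.11, 0.10, 0.09 and 0.13. They were below NT under both of the other scalings, Prim2 was below NT only in the authors' deposited values, and Pcna was at the NT level after quantile normalization. No member that was below NT here was above it under those scalings.

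The same-slide pairs show how the knockdowns compare without a change of slide. Relative to Ino80b, the Ino80 knockdown had 35 of 43 replication genes lower, where 47.6% of all genes were lower, and the median difference was -0.15 for the members and 0.02 for all genes. The arrays of each group differed from each other. Relative to all genes and the NT mean, the members' median was -0.25 on Ino80 replicate 1 and -0.01 on replicate 2. On the Ino80b arrays it was -0.03 and 0.15, so Ino80 replicate 2 lay close to Ino80b replicate 1. Between arrays of the same replicate number, Ino80 was lower than Ino80b both times. It is not known whether these numbers pair the samples. No member was called, against 0.0702% of all genes. At an unadjusted p under 0.05, 2 members were lower, Rrm2 and Gins2, and none was higher (4.01% and 4.98% of all genes). Gins2, a subunit of GINS, had log2 levels of 2.58 and 2.58 in Ino80 knockdown cells, against 2.89 and 3.03 in Ino80b. The groups did not overlap, and the difference was -0.38 ± 0.12 (limma adjusted p = 0.429). All 43 members had a 95% interval inside 2-fold, as did 71.6% of all genes.

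Relative to Ino80e, the Ino80c knockdown had 37 of 43 replication genes lower, where 47.8% of all genes were lower, with a median difference of -0.10 for the members and 0.02 for all genes. No member was called, against 0.0351% of all genes, and none passed an unadjusted p under 0.05, which 10.8% of all genes did. All 43 had a 95% interval inside 2-fold, as did 70.1% of all genes. The most negative difference was that of Chaf1b, at -0.34 ± 0.28, and the most positive was that of Rpa3, at 0.21. The members' array medians relative to the NT mean were 0.24 and 0.20 in Ino80c, against 0.27 and 0.39 in Ino80e, and did not overlap. They were -0.07 and 0.12 in Ino80, against 0.08 and 0.30 in Ino80b, and did overlap. Between arrays of the same replicate number, Ino80 was again lower than Ino80b both times.

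Promoters were searched for the E2F consensus TTTNNCGC on both strands, in windows of 300 bases of which 250 lie upstream of the gene's start (RefSeq, GRCm38.p6). Of the 43 members 36 matched the table, and Gmnn, Mcm4, Gins1, Gins2, Prim2, Pole and Rfc2 were not in it. The consensus was in 14 of 36 member genes (38.9%) and in 5.93% of 27025 genes. A gene with several or overlapping matches was counted once, and none of the motifs searched contains another. The CCAAT box (letters CCAAT) was in 66.7% of member genes and 41.1% of all genes. The CHR element of G2/M genes (letters TTTGAA) was in 19.4% and 20.2%, and the YY1 motif (letters AANATGGCG) was in 8.33% and 2.76%. Stretches of 60 bases around the consensus are shown for genes with a negative mean change in the 4 knockdowns (Orc1 and Mcm5) and genes with a positive one (Mcm6 and Gins3), with matches on either strand in capitals. They lie at chr4:108579394-108579453 (plus strand) for Orc1, chr8:75109334-75109393 (plus strand) for Mcm5, chr1:128359719-128359778 (minus strand) for Mcm6 and chr8:95633492-95633551 (plus strand) for Gins3.
Orc1: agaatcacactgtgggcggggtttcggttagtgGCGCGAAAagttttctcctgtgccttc
Mcm5: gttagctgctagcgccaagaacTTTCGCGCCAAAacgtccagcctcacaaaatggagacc
Mcm6: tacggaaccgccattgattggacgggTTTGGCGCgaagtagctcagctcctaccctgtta
Gins3: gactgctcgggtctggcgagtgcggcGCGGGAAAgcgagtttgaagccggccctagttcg

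Members with and without a match covered overlapping ranges of change. Over the mean of the 4 knockdowns the 14 genes with the consensus had a median of 0.22, between -0.35 and 0.37, and the 22 without it had a median of 0.15, between -0.60 and 0.65. In the Ino80 knockdown the medians were 0.05 with the consensus and -0.02 without it. The windows of Orc6, Pola2, Pold2 and Rrm2, the called members, did not hold these letters.

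Of 48 other genes of replication 1 rose and 1 fell in the Ino80 knockdown, where 7.77% of all genes were called higher and 4.84% lower. Donson, a fork protein, rose by 0.62 ± 0.11 (limma adjusted p = 0.0176), and Ticrr (treslin), which helps to fire origins, fell by 0.78 ± 0.15 (adjusted p = 0.0222). None of the 48 was called in Ino80b, Ino80c or Ino80e, where 6.77%, 6.7% and 0% of all genes were. At an unadjusted p under 0.05, 9 were higher and 5 lower in Ino80b (19.5% and 10.1% of all genes), 7 and 6 in Ino80c (23.3% and 7.44%), and 9 and 3 in Ino80e (22% and 6.92%). In the mean of the 4 knockdowns Donson (0.51) and the histone chaperone Asf1a (0.40) rose, and Ticrr (-0.60), the clamp loader factor Chtf8 (-0.45) and the polymerase delta subunit Pold4 (-0.35) fell, where 13.1% of all genes rose and 5.53% fell. The median of the 48 relative to all genes lay between -0.12 in Ino80 and 0.04 in Ino80b.

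Of 20 E2F and G1/S genes, which regulate entry into S phase, 3 rose and 3 fell in the Ino80 knockdown, where 7.77% of all genes were called higher and 4.84% lower. The repressor genes E2f6 (0.94 ± 0.19) and E2f7 (0.67 ± 0.12) and the gene E2f5 (0.53 ± 0.12) rose, with limma adjusted p of 0.0245, 0.0181 and 0.0369. Rbl2, which encodes the pocket protein p130, fell by -1.29 ± 0.23, E2f2 by -0.96 ± 0.18 and the kinase gene Cdk2 by -0.77 ± 0.17 (adjusted p = 0.017, 0.0192 and 0.0292). E2f7 rose in Ino80b (0.62) and Ino80c (0.54), and E2f2 (-0.84) and Cdk2 (-0.78) fell in Ino80b, so that 3 of 20 were called in Ino80b and 1 in Ino80c, where 6.77% and 6.7% of all genes were. No gene of this list was called in Ino80e, where 0% of all genes were. There 4 were higher and 3 lower at an unadjusted p under 0.05 (22% and 6.92% of all genes). In that knockdown E2f7 was at 0.39 and Rbl2 at -0.69. E2f1, an activator of replication genes, was between -0.11 and -0.34 in the 4 knockdowns and was not called. In the mean of the 4 knockdowns 3 of the 20 rose (E2f5, E2f6 and E2f7) and 4 fell (Rbl2, Cdk2, Cdkn1b and E2f4). Of all genes 13.1% were called higher and 5.53% lower there. Whether the regulators differed from the machinery as a group was not tested.

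Of 23 genes of G2 and mitosis 3 were called in the Ino80 knockdown, where 12.6% of all genes were. Bub1 (0.69 ± 0.15) and Mki67 (0.64 ± 0.16) rose and Hmmr (-0.80 ± 0.19) fell in the Ino80 knockdown, with limma adjusted p of 0.0314, 0.0446 and 0.0361. Hmmr also fell in Ino80b (-1.18) and Ino80c (-0.91). No other gene of the list was called there, where 6.77% and 6.7% of all genes were. None was called in Ino80e, where Cenpe was at 0.78 (adjusted p = 0.0866 in limma). At an unadjusted p under 0.05 there were 3 higher and 2 lower in Ino80 (20.8% and 10.8% of all genes). Ino80b had 4 and 4 (19.5% and 10.1%), Ino80c 6 and 2 (23.3% and 7.44%), and Ino80e 8 and 2 (22% and 6.92%). Bub1, Cenpe and Mki67 rose, and Hmmr and Bub1b fell, in the mean of the 4 knockdowns. Over all genes 13.1% rose and 5.53% fell in that mean.

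The stem cell markers were present in every group, and some were lower in the knockdowns. Of 12 listed markers 11 were tested, and all 11 were well above background on all 10 arrays. Nanog had log2 levels of 1.72 and 1.99 in Ino80 knockdown cells, 1.79 and 2.09 in Ino80b, 2.05 and 2.24 in Ino80c, and 2.80 and 3.0 in Ino80e, against 2.98 and 3.42 in NT cells. Of the 11, 5 fell in Ino80 (Esrrb, Nanog, Pou5f1, Sall4 and Zfp42), where 4.84% of all genes were called lower. In Ino80b 3 fell, where 6.77% of all genes were called in either direction and 552 of the 19942 were called lower. In Ino80c 2 fell, where 1.68% were called lower. None was called in Ino80e, as for all genes (0%). There 4 were lower and 0 higher at an unadjusted p under 0.05 (6.92% and 22% of all genes). Zfp42, at 7.26 and 7.53 in Ino80e and 7.02 and 6.93 in NT, lay above both NT arrays there, as did Dppa4 and Dppa5a. Of the genes listed as fibroblast markers, which would mark feeder cells and are also made by differentiated cells, 11 of 13 were tested. Of these 5 rose in Ino80 (Dcn, Tagln, Twist2, Col1a1 and Col5a1), where 7.77% of all genes were called higher. In Ino80b 2 rose and in Ino80c 3, where 6.77% and 6.7% of all genes were called in either direction. Of the 19942 genes, 798 were called higher in Ino80b and 1002 in Ino80c. None of the 11 fell. None was called in Ino80e in limma or had an unadjusted p under 0.05, and Fbn1 and Thy1 were at -0.15 and -0.20 in Ino80, not called. The mean log2 level of these 11 was -2.22 and -2.17 in Ino80, -2.60 and -2.48 in Ino80b, -2.10 and -2.28 in Ino80c, and -2.72 and -2.86 in Ino80e, against -2.90 and -3.01 in NT. Postn was well above background on 3 arrays and Twist2 on 9, and Lum and Fap did not pass the filter. The part of these cell type markers in the values of the replication genes was not tested, and in bulk RNA fewer cells of a type and less RNA per cell cannot be told apart.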

How the data were processed

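RNA of 10 samples was hybridised to Agilent 4x44K arrays, read in 1 colour. Feature Extraction 9.5.3.1 was used for quantification, per the file headers, and the deposited scanner files give an intensity per spot (processed signal, background-subtracted and detrended within the array). The authors also deposited a table of log2 values. A column of it was the array's log2 mean signal shifted by 1 constant of unknown origin, without background subtraction, with column medians between 6.76 and 6.87.

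Control and outlier spots were left out, spots of a probe were averaged, and the array's 75th percentile was subtracted from log2 processed signal. A probe was kept when both arrays of some group read it well above background (29587 of 41143 usable). Probes were named by accession (22951), current symbol (6659) or unique synonym (3109) from RefSeq (GRCm38.p6), and 8455 kept the array's name. The brightest probe stood for a gene, giving 19942 genes. No spot was saturated. Probe coordinates are mm7, and no annotation of that build was used, so exons and UTRs are not named. Levels were fitted with limma 3.58.1 in R 4.3.3 (data.table, version 1.17.8), on all 10 arrays with group as the only term (5 residual and 2.23 prior degrees of freedom). P-values are two-sided, adjusted by Benjamini-Hochberg over all genes, and called under 0.05. The number of arrays limits the precision. The fit was tested on simulated data with changes larger than those of the members and no slide or replicate effect. That test does not cover changes of the members' size or differences between slides.

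The members and gene lists were chosen with earlier results of these data known. Values of every array are given for members called in any of the 7 comparisons, and for the 3 most positive and 3 most negative others in the mean of the 4 knockdowns. Members of interest within a role, among them Mcm2 and Gins2, were also given after their values were seen. Alternatives were normexp background correction (offset 50), quantile normalization, the authors' values, other filters and probe rules, other variance settings, array weights, a replicate block, the compared arrays alone, and leaving out each array.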

Additional observations from a re-analysis of the deposited data

Results flagged for a closer look

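Mcm2 and Rpa2 had both arrays of some knockdowns on opposite sides of the NT arrays. Mcm2 lay below both NT arrays in Ino80 (log2 fold change -0.37) and Ino80b (-0.14) and above both in Ino80e (0.047). That difference between slides was not tested. Rpa2 lay below both NT arrays in Ino80 (-0.20) and above both in Ino80b (0.075). On the shared slide the Ino80 minus Ino80b difference was -0.27 ± 0.15 for Rpa2 and -0.23 ± 0.13 for Mcm2, neither called (limma adjusted p = 0.638 and 0.642).

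Of the 4 targeted genes, Ino80 and Ino80c were called between the knockdowns of a slide. Ino80b RNA, at 2.30 in Ino80 minus Ino80b, and Ino80e RNA, at 1.24 in Ino80c minus Ino80e, were not called. Ino80 RNA was lower in Ino80 than in Ino80b knockdown cells, at -1.52 ± 0.13 (limma adjusted p = 0.0185), and Ino80c RNA was lower in Ino80c than in Ino80e knockdown cells, at -2.86 ± 0.16 (adjusted p = 0.00492). Groups of 2 arrays are too small to test for an outlying array.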

How the results depend on the processing

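The number of replication genes called depended on the processing, and the cause was not tested except where fewer arrays or more genes tested were the change itself. In Ino80 (1 here) it was 3 with normexp, 2 with quantile normalization, 4 in the authors' values, 0 without a filter, 3 with probes above background on all arrays, 4 with a trended robust prior, 0 with array weights and 0 with the compared arrays alone. In Ino80b (0 here) these were 8 (normexp), 1 (quantile), 4 (authors), 4 (all arrays) and 7 (prior). In Ino80c (1 here) they were 9 (normexp), 6 (authors), 0 (no filter), 2 (all arrays), 0 (mean of probes), 4 (prior), 0 (weights) and 0 (compared arrays alone). In Ino80e (0 here) they were 16 (normexp), 3 (authors) and 7 (prior). In the mean of the 4 knockdowns (3 here) they were 17 (normexp), 5 (quantile), 10 (authors), 0 (no filter), 10 (all arrays), 17 (prior) and 0 (weights). With the replicate number as a block the counts were 6, 6, 4, 3 and 12 in Ino80, Ino80b, Ino80c, Ino80e and their mean. Whether the numbers pair the samples is not known. Deviations of arrays with the same number were correlated over 0.1 in 8 of 10 pairs of groups. The lowest correlation was 0.00217 and the highest 0.326. The fit reported here has no term for the replicate number. Leaving out 1 array gave 0 to 3 in Ino80, 0 to 5 in Ino80b, 0 to 2 in Ino80c, 0 to 0 in Ino80e and 0 to 8 in the mean. Both same-slide pairs had 0 in all 21 alternatives each.

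Over all genes, normexp called 4527 higher and 738 lower in Ino80e, where the fit reported here called 0 and 0. In the authors' values the share of higher calls in Ino80c was 28.3%, against 74.9% here, with 38.8% against 59.1% in Ino80b and 42.3% against 70.2% in the mean of the 4 knockdowns. Relative to all genes, the members' median in Ino80b was -0.060 under quantile normalization and 0.062 here. Without 1 array it lay between -0.25 and -0.011 in Ino80, -0.03 and 0.15 in Ino80b, -0.05 and 0.04 in Ino80c, and 0.09 and 0.20 in Ino80e. Of the called members, Rrm2 stayed called in 8 of 21 alternatives, Pola2 in Ino80c in 10 of 21, and Orc6, Pola2 and Pold2 in the mean of the 4 knockdowns in 11, 12 and 11 of 20. None reversed.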

Other observations

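Probes of the same gene differed from each other more across slides than within a slide. For the 11 replication genes with more than 1 kept probe, the median difference between the log2 fold changes of a gene's probes was between 0.31 and 0.36 in the 4 knockdowns against NT. It was 0.08 for Ino80 minus Ino80b and 0.07 for Ino80c minus Ino80e, both within a slide, and between 0.17 and 0.30 for pairs of knockdowns on different slides. Over the 6782 genes with more than 1 kept probe the same medians were between 0.38 and 0.45 against NT, 0.19 and 0.18 within a slide, and between 0.21 and 0.27 for knockdowns on different slides. The fold changes of all 43 members against NT, each from its brightest probe, had median sizes between 0.22 and 0.40. The difference between probes is that of a gene's highest and lowest probe, in the 11 genes only, and includes dimmer probes. These are different measures on different sets of genes, so only their rough size can be compared. In the mean of the 4 knockdowns, 7 of these 11 genes had kept probes of opposite sign, Cdc6, Mcm3, Cdc7, Pola2, Pold1, Rfc2 and Top2a. Mcm3, for example, was at 0.22 with its brighter probe and -0.25 with its other probe, and Tyms at 0.36, 0.43 and 0.90 with its 3 probes.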
